A study of Mus musculus with 6 samples.

Results

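The genes described here are 10 targets of p53 that act in apoptosis, picked by symbol from the 36172 genes of the deposited expression table, and each symbol matched 1 entry. They are *Bax*, *Bbc3* and *Pmaip1*, which act at the mitochondrion, the death receptors *Fas* and *Tnfrsf10b*, the caspase activator *Apaf1*, and the further death effectors *Perp*, *Aen*, *Ei24* and *Trp53inp1*. Their levels were compared in organoids from small intestinal tumors of *Apc(D716)* mice with 3 *Trp53* genotypes, named p53(+/+), p53(flox/flox) and p53(M/M), with 2 libraries of poly(A) RNA each. An organoid is a culture of epithelial cells that grows in a gel in 3 dimensions. In each genotype the cells carried *Apc* truncated at codon 716 with loss of the remaining wild-type allele (LOH), the strain was C57BL/6, and the age was 15 to 20 weeks. The p53(+/+) cells kept wild-type *Trp53*, p53(flox/flox) cells were homozygous null, and p53(M/M) cells were homozygous for the missense mutation R270H. By the study's methods the R270H allele acts as a null until Cre recombines it. For p53(M/M) the mice received tamoxifen to activate *villin-CreER*, whose promoter is active in gut epithelium. Normal epithelium was not analysed here, and p53(+/+) tumor organoids are the reference throughout.

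p53 is a transcription factor that binds DNA as a tetramer and, in cells with damage or oncogenic stress, raises genes that stop the cell cycle or kill the cell. Its death targets lie on both routes to caspase activation. BAX permeabilises the outer mitochondrial membrane, PUMA (*Bbc3*) and NOXA (*Pmaip1*) block its antagonists, and APAF1 then assembles the apoptosome, whereas FAS and the TRAIL receptor (*Tnfrsf10b*) start death from the cell surface. R270H lies in the DNA-binding domain of mouse p53 and is the counterpart of a hotspot mutation of human tumors.

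Promoter sequences are shown first, since the genes were grouped as targets of a factor that reads a DNA motif. RefSeq start sites on GRCm38.p6 gave windows of 250 bases before to 50 bases after the start for 6 of the 10 genes (*Bax*, *Bbc3*, *Fas*, *Apaf1*, *Aen* and *Ei24*). Windows for *Pmaip1*, *Tnfrsf10b*, *Perp* and *Trp53inp1* were not analysed here. The 250 bases before the start are printed 5′ to 3′ on the gene's strand for *Bax* and *Bbc3*, which fell in p53(M/M), and for *Apaf1*, for which no change was called. Capitals mark the best pair of p53 consensus decamers where it had at most 3 mismatches, and *Apaf1* had no such pair. In GENCODE M21, 27 bases of the *Apaf1* window are exonic.
Bax, chr7:45466899-45467148, minus strand: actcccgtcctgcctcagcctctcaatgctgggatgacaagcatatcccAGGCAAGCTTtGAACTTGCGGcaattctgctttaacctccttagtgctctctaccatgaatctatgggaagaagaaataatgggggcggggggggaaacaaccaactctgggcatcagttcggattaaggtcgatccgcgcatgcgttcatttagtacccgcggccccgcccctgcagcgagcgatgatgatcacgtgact
Bbc3, chr7:16309333-16309582, plus strand: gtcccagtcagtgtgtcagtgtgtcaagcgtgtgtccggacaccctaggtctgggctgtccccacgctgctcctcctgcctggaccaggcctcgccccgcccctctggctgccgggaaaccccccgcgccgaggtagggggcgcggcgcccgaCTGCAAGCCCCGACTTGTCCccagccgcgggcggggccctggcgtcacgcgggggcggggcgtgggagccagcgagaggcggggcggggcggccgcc
Apaf1, chr10:91082744-91082993, minus strand: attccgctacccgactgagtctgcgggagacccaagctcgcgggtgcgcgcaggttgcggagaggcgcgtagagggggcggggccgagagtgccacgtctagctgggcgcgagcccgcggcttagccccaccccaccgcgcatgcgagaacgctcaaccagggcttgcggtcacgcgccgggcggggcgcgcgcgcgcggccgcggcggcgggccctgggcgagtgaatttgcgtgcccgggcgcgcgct

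Sites were searched with the p53 consensus decamer, a palindrome, so that 1 pass reads both strands, and with pairs of decamers up to 13 bases apart. A pair was counted when it kept the fixed C and G of each decamer and had at most 3 mismatches in all. The *Bax* pair had 2 mismatches and a spacer of 1 base, began 201 bases before the start (chr7:45467079-45467099), and lay upstream of every GENCODE M21 transcript of the gene. The *Bbc3* pair, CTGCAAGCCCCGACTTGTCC, had 3 mismatches and no spacer and began 97 bases before the start (chr7:16309486-16309505), inside an intron of a longer transcript. *Aen*, which encodes a nuclease that digests DNA in dying cells, held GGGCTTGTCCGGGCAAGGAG on the plus strand (chr7:78895937-78895956), again with 3 mismatches and no spacer, in exonic sequence of GENCODE M21. *Ei24*, whose product sits in the endoplasmic reticulum, held the exact decamer GGGCATGCCC 10 bases before the start (chr9:36797335-36797344, minus strand), and its best pair had 4 mismatches. A decamer with no mismatch was present in 3 of the 6 genes (*Bax*, *Aen* and *Ei24*) and in 9.55% of the 27025 genes with a window. A pair within 3 mismatches was present in 3 of the 6 (*Bax*, *Bbc3* and *Aen*) and in 17.4% of all genes. *Bbc3* had 3 windows, and another of them also held a pair with 3 mismatches (chr7:16310156-16310177). That pair had a spacer of 2 bases and began 105 bases before the start of its window. The best pairs of *Fas* and *Apaf1* had 5 mismatches each. These matches describe letters in short windows, and occupancy by p53 was not analysed here.

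The libraries are described once here. Levels are in rpkm, read density scaled to transcript length and library depth, so that levels of different genes may be set side by side. No value was under 1 rpkm, and a gene listed at 1 is called at the floor, since anything lower cannot be seen. The targeted gene fitted the labels, with *Trp53* at 75.9 and 74.3 rpkm in p53(+/+), 1.73 and 2.48 in p53(flox/flox) and 72.8 and 82.7 in p53(M/M), and rpkm does not tell wild-type from R270H transcripts. *Trp63* and *Trp73*, which encode the p53 relatives, were at the floor in all 6 libraries. Replicates were uneven, since the median s.d. between the 2 libraries on the log2 scale was 0.0463 in p53(+/+), 0.0621 in p53(M/M) and 0.247 in p53(flox/flox). All 8 epithelial markers were above the floor in every library, with summed levels of 2713 to 2752 rpkm in p53(+/+), 4023 to 4305 in p53(flox/flox) and 2253 to 2401 in p53(M/M). Of the 6 fibroblast markers, *Vim* alone passed 4 rpkm, at 49.95 to 69.0, 19.8 to 71.6 and 284 to 306 rpkm in the same order, while *Col1a2* and *Col3a1* were at the floor throughout and the others were at most 2.44. Of 5 immune markers 4 were at the floor in all libraries, and *Cd68* ranged from 2.06 to 11.1 rpkm. Of 3 endothelial markers 2 were at the floor, and *Cdh5* was at 8.88 and 9.35 rpkm in p53(+/+) but at most 3.30 in the other genotypes. The part of these markers in the results below was not tested, and fewer cells of a type cannot be told apart from less RNA per cell.

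Among the mitochondrial death genes, *Bax* was measured at 73.9 and 78.7 rpkm in p53(+/+), 61.7 and 36.4 in p53(flox/flox), and 28.6 and 33.8 in p53(M/M). It was highest in both p53(+/+) libraries and lowest in both p53(M/M) libraries, and no genotypes overlapped, although the p53(flox/flox) libraries differed 1.69-fold. The mean in p53(M/M) was 40.9% of that in p53(+/+), and the fall was called by limma, the moderated test fitted over all genes with Benjamini-Hochberg adjustment at 0.05 (log2 fold change of rpkm + 1, -1.27, s.e. 0.258, adjusted p = 0.0396). In p53(flox/flox) the mean was 64.3% of p53(+/+) with a log2 fold change of -0.67, and its limma adjusted p of 0.136 missed the threshold.

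*Bbc3*, which encodes PUMA, an activator of death that binds all the antiapoptotic BCL2 proteins, was a low-level gene. Its values were 4.72 and 4.59 rpkm in p53(+/+), 2.20 and 1.72 in p53(flox/flox), and the floor of 1 in both p53(M/M) libraries. The 3 genotypes were therefore ordered without overlap, and p53(M/M) was at least 4.65-fold lower than p53(+/+), a bound set by the floor. limma called the fall in p53(M/M) (adjusted p = 0.0073) and in p53(flox/flox) (log2 fold change -0.94, adjusted p = 0.0282), while p53(M/M) against p53(flox/flox) had an adjusted p of 0.0527. *Bbc3* passed the filter of 4 rpkm in at least 1 library through p53(+/+) alone, so that a difference was built into its being tested.

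*Pmaip1*, which encodes NOXA, an antagonist of MCL1, stood at 34.5 and 34.0 rpkm in p53(+/+), 13.6 and 28.8 in p53(flox/flox), and 12.3 and 11.9 in p53(M/M). Both p53(+/+) libraries were above the other 4, and the p53(flox/flox) libraries lay 2.12-fold apart, 1 close to p53(M/M) and 1 closer to p53(+/+). The mean of p53(M/M) was 35.4% of p53(+/+), a log2 fold change of -1.42 with a 95% confidence interval of -2.26 to -0.59. Its limma adjusted p of 0.0527 missed the threshold. With median-of-ratios scaling it was 0.0494, and over the 12 other settings tried it ran from 1.5e-05 to 0.213. Without p53(flox/flox) replicate 1 or without replicate 2 the fall was called.

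**Figure D1:**
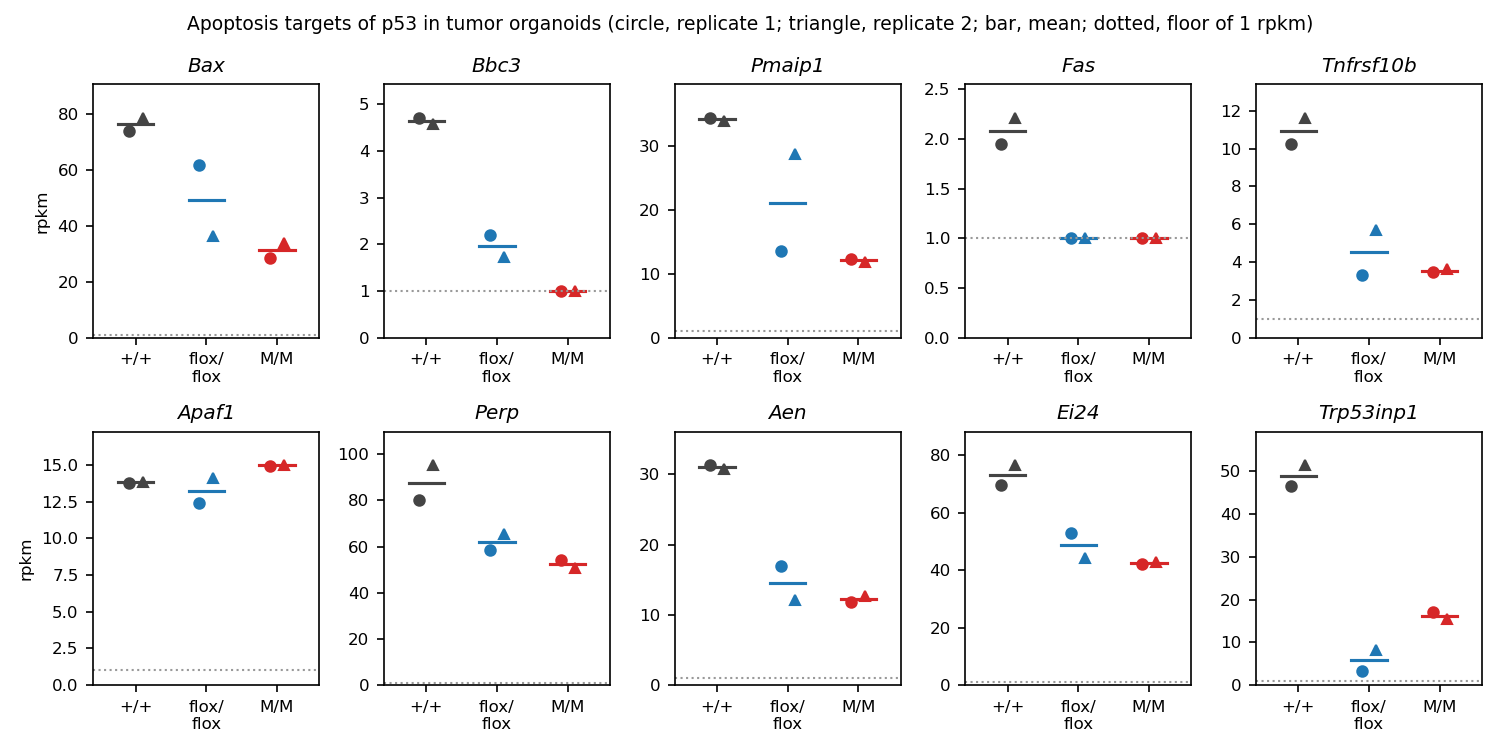
Level in rpkm (y axis, linear, from 0) of each of the 10 genes in the 2 libraries of each genotype (x axis), with replicate 1 as a circle, replicate 2 as a triangle, the mean as a bar and the floor of 1 rpkm as a dotted line. In every gene but *Apaf1* both p53(+/+) libraries lie above the other 4, and *Trp53inp1* and *Apaf1* are the genes in which both p53(flox/flox) libraries lie below both p53(M/M) libraries.

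The death receptor gene *Fas* was at 1.95 and 2.21 rpkm in p53(+/+) and at the floor in the other 4 libraries. Its level was thus at least 2.08-fold lower in both mutant genotypes, and nothing can be said of a difference between them. *Fas* failed the filter of 4 rpkm and was not tested in the limma fit reported here. When all genes above 1 rpkm in some library were admitted, the adjusted p was 0.0062 for p53(M/M) and 0.0119 for p53(flox/flox), and with no filter 0.0621 and 0.0842, but *Fas* is above the floor through p53(+/+) alone.

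*Tnfrsf10b*, the mouse receptor for the death ligand TRAIL, was measured at 10.3 and 11.6 rpkm in p53(+/+), 3.32 and 5.70 in p53(flox/flox), and 3.47 and 3.62 in p53(M/M). Both mutant genotypes were below both p53(+/+) libraries, and the p53(M/M) values fell between those of p53(flox/flox). It fell to 32.3% of the p53(+/+) mean in p53(M/M) (log2 fold change -1.39, limma adjusted p = 0.0244) and to 41.2% in p53(flox/flox) (log2 fold change -1.15, limma adjusted p = 0.0396). The difference between the 2 mutant genotypes was -0.24 on the log2 scale, with a 95% confidence interval of -0.83 to 0.34.

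*Apaf1*, the scaffold on which caspase-9 is activated, was measured at 13.8 and 13.9 rpkm in p53(+/+), 12.4 and 14.1 in p53(flox/flox), and 14.9 and 15.0 in p53(M/M). The p53(flox/flox) values spanned those of p53(+/+), and p53(M/M) was above all the others by a small margin. No change was called in any comparison (limma adjusted p = 0.541, 0.714 and 0.280). The log2 fold change of p53(M/M) against p53(+/+) was 0.11, with a 95% confidence interval of -0.16 to 0.38, which bounds the fall that these libraries allow.

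Of the further effectors, *Perp*, which encodes a membrane protein of cell junctions that takes part in p53-dependent death, was abundant at 80.0 and 95.4 rpkm in p53(+/+), 58.7 and 65.4 in p53(flox/flox), and 54.2 and 50.7 in p53(M/M). The genotypes did not overlap. The fall to 59.8% in p53(M/M) was called (log2 fold change -0.73, limma adjusted p = 0.0299), and the value of 70.7% in p53(flox/flox) was not (log2 fold change -0.49, limma adjusted p = 0.0707).

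*Aen*, the nuclease gene with a matched decamer pair, had 31.4 and 30.7 rpkm in p53(+/+), 16.9 and 12.1 in p53(flox/flox), and 11.9 and 12.6 in p53(M/M). Both mutant genotypes were low and overlapped each other. The falls to 39.5% in p53(M/M) (log2 fold change -1.27, limma adjusted p = 0.0150) and to 46.8% in p53(flox/flox) (-1.06, limma adjusted p = 0.0274) were both called.

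*Ei24* was at 69.6 and 76.7 rpkm in p53(+/+), 52.97 and 44.3 in p53(flox/flox), and 42.3 and 42.9 in p53(M/M), with no overlap between genotypes. It fell to 58.2% in p53(M/M) (log2 fold change -0.77, limma adjusted p = 0.0241) and to 66.4% in p53(flox/flox) (-0.58, limma adjusted p = 0.0461). The falls of *Ei24* and *Perp* were the smallest of those called in p53(M/M).

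*Trp53inp1*, which encodes a stress protein that acts with kinases to phosphorylate p53 and also takes part in autophagy, followed another order. It stood at 46.5 and 51.6 rpkm in p53(+/+), 3.34 and 8.17 in p53(flox/flox), and 17.0 and 15.4 in p53(M/M). The lowest libraries were those of p53(flox/flox), and no genotypes overlapped. It fell to 11.7% in p53(flox/flox) (log2 fold change -2.99, limma adjusted p = 0.0147). In p53(M/M) it stood at 33.1% of p53(+/+), and this comparison missed the threshold (log2 fold change -1.54, s.e. 0.351, limma adjusted p = 0.0511). The mean in p53(M/M) was 2.82-fold higher than in p53(flox/flox), which was called (log2 fold change 1.45, limma adjusted p = 0.0398).

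Read together, 6 of the 9 genes tested fell in p53(M/M) against p53(+/+), namely *Aen*, *Bax*, *Bbc3*, *Ei24*, *Perp* and *Tnfrsf10b*, where 6.36% of all 10042 genes tested were called lower and 5.86% higher. None rose, and at an unadjusted p under 0.05 in limma 8 were lower and 0 higher. The share of all genes under that unadjusted threshold was not counted, here or in the comparisons below. Their median log2 fold change was -1.27, against 0.03 over all genes. Both p53(M/M) libraries were below both p53(+/+) libraries for 8 of the 9, as they were for 37.6% of all genes. Because *Bbc3* was tested only through its level in p53(+/+), a filter on the mean of the 6 libraries was also tried, and 5 of 8 genes fell. In that fit 9.95% of all 9143 genes tested were called in either direction. The calls rest on every library of the comparison. Without p53(+/+) replicate 1 or 2, or p53(M/M) replicate 1 or 2, the targets lost their calls. So did most or all of the other genes called, and 8 of the 9 log2 fold changes stayed negative each time. In the main fit 4717 of the 10042 log2 fold changes over all genes were negative. Without p53(flox/flox) replicate 1 or without replicate 2, whose spread enters the common error, 8 were called, all but *Apaf1*, as were 57.1% of all genes.

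In p53(flox/flox) against p53(+/+), which compares null with wild-type cells, 5 of the 9 genes tested fell (*Aen*, *Bbc3*, *Ei24*, *Tnfrsf10b* and *Trp53inp1*), against 6.90% of all genes called lower and 4.38% higher. None rose, and at an unadjusted p under 0.05 in limma 7 were lower and 0 higher, with no share of all genes counted at that threshold. The median log2 fold change was -0.76, against -0.02 over all genes. Both p53(flox/flox) libraries were below both p53(+/+) libraries for 8 of the 9, as they were for 33.9% of all genes. With the filter on the mean of the 6 libraries, which leaves out *Bbc3*, 4 of 8 genes fell, where 10.7% of all genes were called in either direction. This comparison shares its p53(+/+) libraries with the previous one, so the 2 sets of values are given side by side and not as separate evidence. Leaving out either p53(+/+) or either p53(M/M) library took the calls from these targets, as from most other genes called. The log2 fold changes of all 9 genes stayed negative. In the main fit 5236 of the 10042 log2 fold changes over all genes were negative. Leaving out p53(flox/flox) replicate 1 gave 8 calls, where 40.4% of all genes were called in either direction, and leaving out replicate 2 gave 7, where 68.5% were. In a limma fit of only these 2 genotypes 0 were called, where 0.468% of all genes were, and 6 were lower at an unadjusted p under 0.05.

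In p53(M/M) against p53(flox/flox), which sets the missense protein against no protein, the rise of *Trp53inp1* was the only call among the 9, where 13.6% of all genes were called higher and 11.0% lower. None was called lower by limma, and 1 (*Bbc3*) was at an unadjusted p under 0.05. The median was -0.24, against 0.03 over all genes. Of the 9 log2 fold changes 7 were negative, as were 4794 of the 10042 over all genes. Both p53(M/M) libraries were below both p53(flox/flox) libraries for *Bax*, *Bbc3*, *Pmaip1*, *Perp* and *Ei24*, as they were for 31.2% of all genes. The 95% confidence intervals spanned 0 for *Bax* (-1.25 to 0.06), *Pmaip1* (-1.50 to 0.17), *Perp* (-0.57 to 0.09) and *Ei24* (-0.50 to 0.14), so neither equal levels nor a lower level in p53(M/M) was shown. Without p53(flox/flox) replicate 1, 3 were called lower and 1 higher, and without replicate 2, 4 lower and 2 higher. In the same fits 5318 and 7259 of the 10042 genes were called in either direction, in both fits a larger share than among the 9 targets. Without any 1 of the p53(+/+) or p53(M/M) libraries, *Trp53inp1* lost its call, as did most other genes called in either direction.

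**Figure D2:**
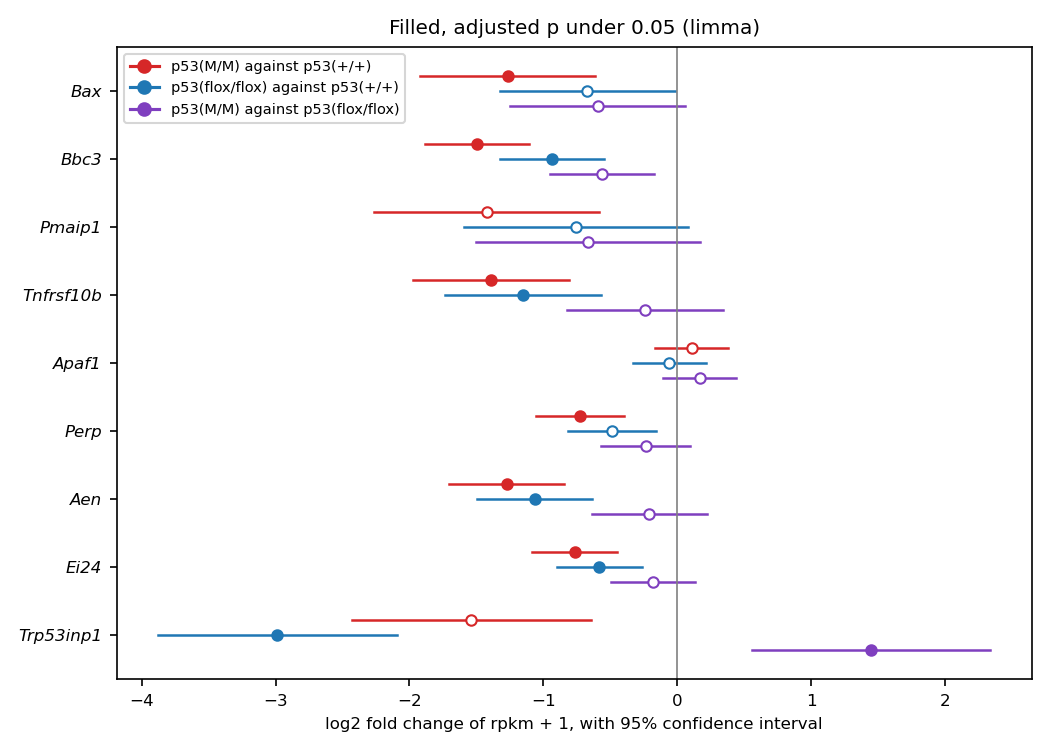
Log2 fold change of rpkm + 1 (x axis) with its 95% confidence interval from limma, for the 9 genes tested and 3 comparisons of genotypes, with filled points where the adjusted p was under 0.05. Red points lie furthest left for *Bbc3* and *Tnfrsf10b* among the calls of p53(M/M) against p53(+/+), the intervals of *Apaf1* span 0, and *Trp53inp1* has the one filled purple point, at 1.45.

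The ratios of means are given in order as a description, with *Pmaip1* and *Trp53inp1* included although neither was called. Against p53(+/+) the ratio of means in p53(M/M) ran from 1.67-fold lower for *Perp* and 1.72-fold for *Ei24*, over 2.45-fold for *Bax*, 2.53-fold for *Aen*, 2.82-fold for *Pmaip1*, 3.02-fold for *Trp53inp1* and 3.09-fold for *Tnfrsf10b*, to at least 4.65-fold for *Bbc3*. The 95% confidence intervals of neighbours in this order overlapped. The most abundant of the genes in p53(+/+) were *Perp*, *Bax* and *Ei24*, and of these *Perp* and *Ei24* had the smallest falls. Over the 6 libraries, the profile of log2(rpkm + 1) of each gene was set against the mean standardized profile of the 9 genes, which includes the gene itself. Pearson's r was highest for *Tnfrsf10b* (0.983) and *Perp* (0.960), lower for *Pmaip1* (0.871), *Trp53inp1* (0.811) and *Bax* (0.807), and -0.15 for *Apaf1*. These correlations describe 6 libraries in 3 genotypes. *Bax*, *Bbc3* and *Aen* all lie on chromosome 7, and the median log2 shift of the 714 tested genes of that chromosome from p53(+/+) was -0.09 and 0.01 in the p53(M/M) libraries and 0.03 and 0.04 in the p53(flox/flox) libraries.

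The check genes of p53 activity were set beside the death genes. *Cdkn1a*, the cell cycle inhibitor p21, was at 110 and 122 rpkm in p53(+/+), 11.8 and 27.0 in p53(flox/flox), and 31.9 and 29.5 in p53(M/M), and fell in both (limma adjusted p = 0.0206 and 0.0353). *Mdm2*, the ubiquitin ligase of p53, was at 40.5 and 44.2, 14.4 and 16.9, and 23.0 and 22.5 rpkm in the same order, fell in both (limma adjusted p = 0.0079 and 0.0156), and was higher in p53(M/M) than in p53(flox/flox) by 0.51 (limma adjusted p = 0.0348). *Cdkn1a*, *Mdm2* and *Trp53inp1* shared one order of means, with p53(flox/flox) lowest, whereas the means of the other apoptosis targets that fell were lowest in p53(M/M). The order was not particular to these genes. Of the further p53 death targets that fell in p53(M/M), described below, *Zmat3*, *Phlda3* and *Pidd1* were also lowest in p53(flox/flox), and *Shisa5* and *Siva1* in p53(M/M). Between p53(M/M) and p53(flox/flox) no difference was called for *Cdkn1a* (limma adjusted p = 0.177), and no apoptosis target was called lower in p53(M/M).

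Other death genes that p53 is known to raise were called in part. Of 12 listed, 10 were tested, 5 fell in p53(M/M) and 3 in p53(flox/flox), where 1 rose. Over all genes tested, 6.36% were called lower in p53(M/M), and 6.90% lower and 4.38% higher in p53(flox/flox). *Phlda3*, which encodes an inhibitor of AKT, went from 29.6 and 32.8 rpkm in p53(+/+) to 4.16 and 2.99 in p53(flox/flox) and 3.77 and 5.06 in p53(M/M), log2 fold changes of -2.82 and -2.58. *Zmat3*, an RNA-binding protein, went from 39.2 and 42.2 rpkm to 4.80 and 4.004 and to 6.99 and 6.81, log2 fold changes of -2.95 and -2.40. *Pidd1*, the scaffold that activates caspase-2, also fell in both genotypes (-1.06 and -0.81). *Siva1*, a proapoptotic adaptor protein, fell in p53(M/M) (-1.65), at 5.75 and 10.3 rpkm against 26.2 and 26.6 in p53(+/+), while the p53(flox/flox) libraries were at 36.1 and 21.7. *Shisa5* fell in p53(M/M) (-0.72), and *Bnip3l*, a mitophagy receptor, rose in p53(flox/flox) (0.55).

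Downstream of the 10 genes, a few genes of the death machinery were called. Over all genes tested, 12.2% were called in either direction in p53(M/M) and 11.3% in p53(flox/flox), both against p53(+/+). Among genes of the apoptosome and caspases *Htra2*, a mitochondrial protease, fell in p53(M/M), with a log2 fold change of -0.50. In p53(flox/flox) *Birc2* fell (-0.55) while *Endog*, a mitochondrial nuclease, and *Birc5*, which encodes survivin, rose (1.54 and 1.01), and *Endog* passed the filter through p53(flox/flox) alone. Caspase-9, the partner of APAF1, was at 4.499 and 4.35 rpkm in p53(+/+), 3.27 and 4.05 in p53(flox/flox), and 4.71 and 4.88 in p53(M/M), with no call. Of 9 tested genes of the death receptor pathway, *Tnfsf10*, which encodes the ligand of the receptor *Tnfrsf10b*, was at 4.33 and 3.22 rpkm in p53(+/+), 1 and 1.11 in p53(flox/flox) and the floor in p53(M/M), and passed the filter through p53(+/+) alone. It fell in both genotypes (limma adjusted p = 0.0240 and 0.0180). *Tnfrsf1a*, the TNF receptor, fell in p53(M/M) (-0.80), *Tradd*, its adaptor, rose in p53(flox/flox) (0.87), and the FAS ligand gene *Fasl* was at the floor throughout.

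The partners of BAX, PUMA and NOXA in the BCL2 family gave no call in p53(M/M) against p53(+/+) in 9 tested genes. Over all genes 12.2% were called there. *Bmf*, which passed the filter through p53(M/M) alone, came nearest, with a log2 fold change of 1.23 and a limma adjusted p of 0.0501. In p53(flox/flox) *Bcl2* fell (-0.83), with values that passed the filter through p53(+/+) alone, and *Bak1*, the other pore former, rose (0.88). *Bok* missed the threshold there (log2 fold change 1.28, limma adjusted p = 0.0510). *Bak1* was at 31.5 and 29.9 rpkm in p53(+/+), 59.0 and 55.9 in p53(flox/flox), and 37.3 and 38.6 in p53(M/M), an order unlike that of *Bax*. *Mcl1*, the target of NOXA, was at 43.3 and 44.5, 55.5 and 47.3, and 63.1 and 58.6 rpkm, with no call. Of 4 cofactors that steer p53 toward death genes or away from them, *Ppp1r13l*, which encodes iASPP, an inhibitor, fell in p53(M/M) (-0.73).

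**Figure D3:**
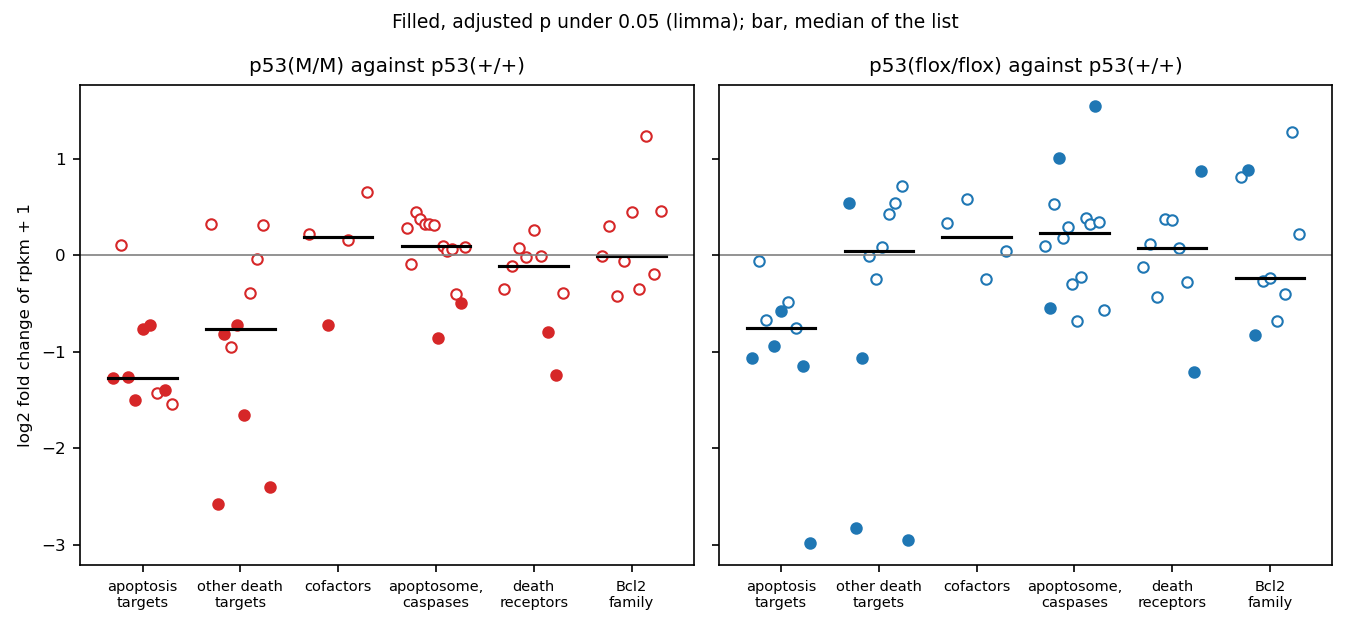
Log2 fold change of rpkm + 1 (y axis) of each tested gene in 6 lists (x axis) in p53(M/M) and in p53(flox/flox), both against p53(+/+), with filled points where the limma adjusted p was under 0.05 and a bar at the list's median. The apoptosis targets have medians of -1.27 and -0.76, the other death targets -0.77 and 0.04, and the 4 remaining lists lie between -0.24 and 0.23.

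A ratio of *Bax* to its antagonists, chosen after the values were seen and not tested, puts its fall beside these partners. The rpkm of *Bax* divided by the summed rpkm of *Bcl2*, *Bcl2l1*, *Bcl2l2* and *Mcl1* was 0.843 and 0.877 in p53(+/+), 0.734 and 0.436 in p53(flox/flox), and 0.283 and 0.343 in p53(M/M). The genotypes did not overlap, and the p53(flox/flox) libraries were the most spread. The summed antagonists were 87.7 and 89.7 rpkm in p53(+/+), 84.1 and 83.5 in p53(flox/flox), and 101 and 98.5 in p53(M/M), so the ratio followed *Bax* more than the sum.

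**Figure D4:**
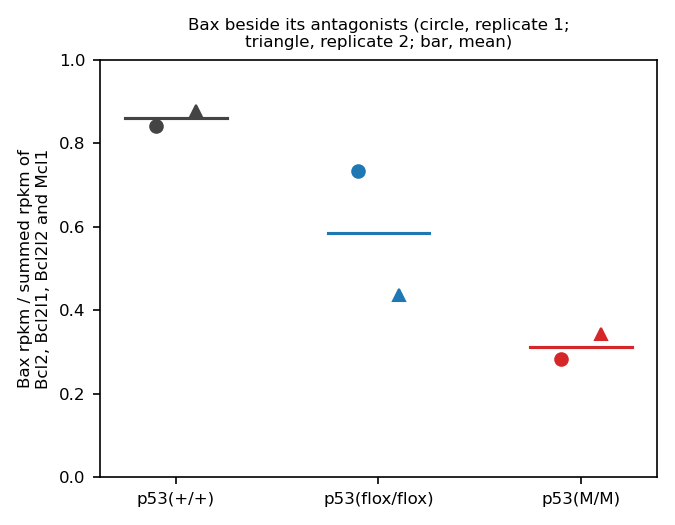
Ratio of *Bax* rpkm to the summed rpkm of 4 antiapoptotic family members (y axis, linear, from 0) in each library by genotype (x axis), with circles for replicate 1, triangles for replicate 2 and bars at the mean. Both p53(+/+) libraries are at 0.843 and 0.877, both p53(M/M) libraries at 0.283 and 0.343, and the p53(flox/flox) libraries between, at 0.734 and 0.436.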

How the data were processed

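RNA from 6 organoid preparations was sequenced by the authors on an Illumina HiSeq after stranded poly(A) library preparation. The authors mapped reads to mm10 and computed the deposited rpkm values, which scale reads by transcript length and library depth, with StrandNGS; its version, gene annotation and read filters are not given in the sources used here. Values under 1 rpkm appear to have been raised to 1, since none is lower. The summed rpkm was 377845 to 484930. The table holds no counts, and depth was estimated roughly from steps of 1 read in only 10 to 15 short genes of a library. For 4 libraries the best fit between 20 and 70 M was at 44.2 to 47.3 M mapped reads. No depth was obtained for p53(+/+) replicate 1 and p53(flox/flox) replicate 1.

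Groups were the 3 genotypes in the sample titles. The 10042 genes that reached 4 rpkm in any library entered limma 3.58.1 in R 4.3.3 (lmFit and eBayes with trend) on log2(rpkm + 1), a scale that understates changes of low genes, with genotype as the only term, a common spread, a two-sided moderated test, and the Benjamini-Hochberg threshold at 0.05 over all genes. An exact permutation test of 2 against 2 cannot go below p = 0.333 and was not used. Nothing in the labels says that replicates came from separate animals, so p-values measure the spread between these samples.

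Members and lists were chosen with earlier results of these data known. Genes named were the 10 members, the check genes, list members called in at least 1 comparison, and the 5 genes most correlated with the members' mean profile; *Bax* antagonists, caspase-9, the floor genes and markers were named beside them. *Pidd1* was matched by gene identifier, and a gene that meets the naming rule is not reported here. Positions came from GENCODE M21 (GRCm38) and promoters from RefSeq (GRCm38.p6). Alternatives were pseudocounts of 0.1 or none, filters above 1 rpkm, none or on the mean, median-of-ratios and upper-quartile scaling, no trend, genotype weights, fits of 2 genotypes, replicate blocks and each library left out. Code was tested on simulated data. Python 3.11.15 with pandas 2.3.3, numpy 2.4.6 and matplotlib 3.10.9 was used.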

Additional observations from a re-analysis of the deposited data

Results flagged for a closer look

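The genes below were singled out because the direct limma comparison of p53(M/M) with p53(flox/flox), which is the difference between their effects against p53(+/+), passed an adjusted p of 0.05. Values are log2 fold changes of rpkm + 1, p53(M/M) minus p53(flox/flox), and at this threshold 24.6% of all genes tested were called in 1 direction or the other. Of the apoptosis targets *Trp53inp1* differed (1.45), as did the targeted gene *Trp53* (4.67) and the check gene *Mdm2* (0.51). Among other p53 death targets and cofactors, *Zmat3* was higher (0.55), and *Shisa5* (-0.47), *Siva1* (-1.74) and *Ppp1r13l* (-1.31) were lower. Among genes of the apoptosome and caspases, *Casp6* (0.61), *Xiap* (0.65) and *Birc2* (0.46) were higher, and *Htra2* (-0.84) and *Endog* (-1.95) were lower. In the death receptor pathway *Tradd* (-1.26) and *Tnfrsf1a* (-0.52) were lower. In the BCL2 family *Bak1* (-0.58) and *Bok* (-1.47) were lower, and *Bcl2l11*, which encodes BIM (0.69), and *Bmf* (1.63) were higher. *Bmf* passed the filter through p53(M/M) alone and *Endog* through p53(flox/flox) alone.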

How the results depend on the processing

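No call among the apoptosis targets changed direction under any alternative. The count of targets that fell in p53(M/M) against p53(+/+), 6, became 1 with no filter and 3 with a replicate block. There 1.18% and 5.48% of all genes were called in either direction, beside 12.2% in the main fit. In p53(flox/flox) against p53(+/+), 5 became 0 with no filter, 1 with genotype weights, 0 in a fit of the 2 genotypes and 1 with a replicate block. The shares of all genes called were 0.202%, 1.49%, 0.468% and 2.79% in the same order, beside 11.3% in the main fit. In p53(M/M) against p53(flox/flox), 0 lower became 1 (*Bbc3*) with a pseudocount of 0.1, none, a filter above 1 rpkm or no trend. In the same order 24.1%, 24.0%, 24.6% and 24.1% of all genes were called in either direction. In this comparison 1 higher became 0 with no filter, in a fit of the 2 genotypes and with a replicate block. The shares of all genes called were 2.07%, 3.76% and 11.5%, beside 24.6% in the main fit. All these counts changed with the library left out, as did the share of all genes called. The median of the targets ranged from -1.38 to -1.23, from -0.83 to -0.75 and from -0.25 to -0.16 with 1 library left out, and that of p53(flox/flox) was -0.80 with upper-quartile scaling. Calls in the wider lists, 10, 11 and 15 in the 3 comparisons, were 2, 1 and 5 with no filter, 31, 2 and 2 with genotype weights or in fits of 2 genotypes, 4, 4 and 8 with a replicate block, and 0 to 31, 0 to 34 and 1 to 34 with 1 library left out. The wider lists held 10, 4, 14, 9 and 9 tested genes. Over all genes tested, 12.2%, 11.3% and 24.6% were called in the 3 comparisons of the main fit. These shares were 1.18%, 0.202% and 2.07% with no filter, and 5.48%, 2.79% and 11.5% with a replicate block. In fits of 2 genotypes they were 57.0%, 0.468% and 3.76%. With genotype weights they were 59.6%, 1.49% and 5.32%, and the cause of the 59.6% was not tested. With 1 library left out the share of all genes also changed, and an excess of calls in the lists was not tested. The replicate numbers share no animal or batch in the labels, and deviations of same-numbered libraries correlated at 0.12 (p53(+/+) and p53(flox/flox)), -0.29 (p53(+/+) and p53(M/M)) and -0.20 (p53(flox/flox) and p53(M/M)), so no pairing was taken. With the p53(M/M) numbers exchanged in the replicate block, 7, 4 and 1 targets were called, beside 9.37%, 8.69% and 22.7% of all genes. Of the values for single targets, 379 kept their side of the threshold, 79 lost it, 28 gained it and 3 that were never called changed sign. The 379 include values of *Fas*, which was untested in the main fit and was counted by its unchanged log2 fold change, not by the threshold. Where 1 library of a genotype was left out, the lone library was assumed to vary like the others. The floor hides any level under 1 rpkm, which limits *Fas* and *Bbc3*.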

Other observations

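The 5 genes outside the list whose log2(rpkm + 1) over the 6 libraries was most like the mean profile of the 9 tested targets were *Slc48a1* (Pearson's r = 0.997), *Cdca7l* (0.997), *Naip1* (0.997), *Cxcr7* (0.996) and *Pitpnm3* (0.996). *Slc48a1*, a heme transporter, was at 22.2 and 22.7 rpkm in p53(+/+), 13.3 and 14.9 in p53(flox/flox), and 13.2 and 12.8 in p53(M/M). *Cdca7l* was at 31.2 and 31.5, 24.98 and 26.3, and 25.3 and 25.3 rpkm in the same order. *Naip1*, *Cxcr7* and *Pitpnm3* were at 3.28 to 4.21 rpkm in p53(+/+), at the floor in both p53(M/M) libraries and in p53(flox/flox) replicate 1, and at 1.204 to 1.56 rpkm in p53(flox/flox) replicate 2. These 3 genes passed the filter of 4 rpkm through p53(+/+) alone, so a profile high in p53(+/+) was built into their being compared. The correlations rest on 6 libraries in 3 genotypes and were chosen as the highest of all genes tested.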
